A study of Mus musculus with 12 samples.

Results

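Complex I members were the 44 protein-coding genes whose names start with Nduf in a table of 54532 genes, without Ndufa4 and Ndufa4l2, which the rule sets aside. They comprised 36 subunits (7 nuclear core and 29 accessory) and 8 assembly factors named Ndufaf. The rule also left out 5 Nduf-named loci that are not protein coding, 4 of them processed pseudogenes, whose reads may be shared with their parent genes. RNA had been sequenced from 6 KO and 6 WT C57BL6/J mouse embryos at embryonic day 9.5. KO embryos were homozygous for a Traf7 allele from which the floxed exons had been removed in the whole body by E2a-Cre, and this allele also carries a linked deletion in an intron of 2310061I04Rik on chromosome 17. Loss of the one gene and loss of the other cannot be told apart here. The series title and design text speak of brain, and the sample labels speak of embryos, which was followed here. Litters are not given, so each p-value reflects only how these embryos varied.

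Complex I, the NADH:ubiquinone oxidoreductase of the inner mitochondrial membrane, is the entry point of electrons from NADH into the respiratory chain. Its N module oxidises NADH, its Q module passes the electrons through iron-sulfur clusters to ubiquinone, and its membrane arm pumps protons. Core subunits carry the chemistry and accessory subunits surround them. The membrane arm's core subunits are encoded by mitochondrial DNA, and assembly factors help to build the complex without staying in it.

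Levels are given as CPM, counts scaled to a common library total after TMM normalisation, for KO and WT embryos 1 to 6 in turn. Traf7, a ubiquitin ligase gene, checked the labels. Traf7 had 19.3, 17.3, 17.1, 19.0, 13.1 and 17.5 CPM in the KO embryos, against 144, 119, 123, 115, 114 and 116 CPM in the WT embryos. The groups did not overlap (log2 fold change -2.83 ± 0.09 (SE), edgeR adjusted p = 2.4e-10). 2310061I04Rik had 1.14, 1.82, 2.03, 1.61, 1.31 and 6.39 CPM in the KO embryos, against 14.4, 7.20, 15.8, 8.05, 12.5 and 14.6 CPM in the WT embryos. These groups did not overlap either, although KO6 was the highest KO embryo, and the difference was not called (log2 fold change -2.35 ± 0.40 (SE), edgeR adjusted p = 0.155; DESeq2 adjusted p = 0.00014). Library totals ran from 16675204 to 21917571 counts, and KO embryos stood apart in different lists. The mean log2 ratio to WT of 26 hypoxia-response entries, with Aldoa under separate identifiers, was 1.17 in KO3 and 1.61 in KO5. KO1, KO2, KO4 and KO6 had 0.20 to 0.49 and the WT embryos -0.22 to 0.26. These entries include Gapdh, at 7.51 CPM in KO2, 7.69 CPM in KO4 and 6.21 CPM in WT4. The other embryos had 112 to 523 CPM of Gapdh, so the means of KO2, KO4 and WT4 are lowered by it. Heart muscle genes averaged -4.24 in KO3, against -0.26 to 0.21 in WT. Yolk sac genes averaged 3.02 in KO6, 2.49 in KO5, -2.13 in KO2 and -2.17 in KO3, against -0.98 to 2.20 in WT. Hox genes averaged -3.72 in KO2, -3.45 in KO3 and -2.16 in KO6, against -1.41 to 0.54 in WT. Erythroid genes ran from -0.70 to 0.48 in KO and from -0.54 to 0.60 in WT. The part of any of these in the complex I values was not tested. In whole embryos, fewer cells that express a gene and less RNA per cell cannot be told apart.

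No complex I member was called in the KO embryos by the quasi-likelihood test of edgeR at an adjusted p of 0.05 or less. All 44 passed the filter on low counts and were among 14804 genes tested, of which 3 (0.0203%) were called, all lower in KO: Traf7, Klf2 (a flow-responsive transcription factor) and Lgals1 (a galectin), the last 2 named after their values were seen. At an unadjusted p of 0.05 or less, 7 members were lower in KO, against 7.72% of all genes, and 1 was higher, against 10.1% of all genes. DESeq2 called 1 member, Ndufa10, against 2.38% of its 13772 genes, and limma voom with sample quality weights called 0, against 0.358%. No member had KO and WT embryos that did not overlap, against 1.74% of all genes with every KO embryo lower and 1.09% with every KO embryo higher.

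The differences were small and mostly on the low side. Of 44 members 35 had a log2 fold change below 0, against 48.4% of all genes. The median was -0.08 over the 36 subunits, of which 29 were below 0, and -0.14 over the 8 assembly factors, of which 6 were below 0, against 0.01 over all genes. Single subunits ran from -0.45 to 0.39 and assembly factors from -0.30 to 0.08. The medians are descriptions, since the members are not replicates.

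**Figure D1:**
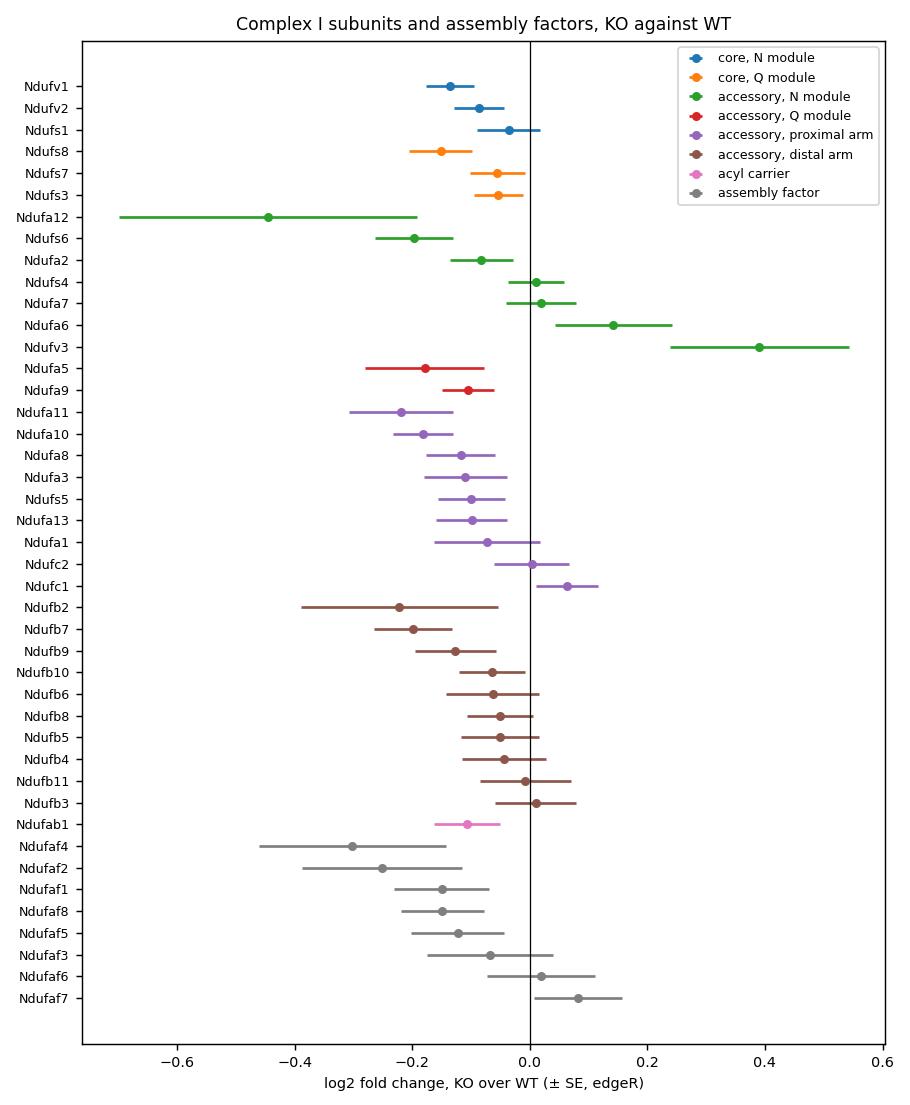
Log2 fold change of KO over WT with its SE from edgeR (x axis) for 43 members (y axis), coloured by role. Most points lie slightly left of 0, Ndufa12 lies lowest at -0.45 and Ndufv3 highest at 0.39.

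The core subunits of the N module, which binds NADH, came first by role. Ndufv1 had 115, 117, 116, 116, 114 and 126 CPM in the KO embryos, against 125, 136, 132, 125, 130 and 125 CPM in the WT embryos. Ndufv1 holds the flavin that accepts electrons from NADH, and KO6 lay inside the WT range while the other 5 KO embryos lay below it (log2 fold change -0.14 ± 0.04 (SE), edgeR adjusted p = 0.17; DESeq2 adjusted p = 0.0509). Ndufv2 had 99.0, 103, 101, 97.7, 94.4 and 98.4 CPM in the KO embryos, against 113, 107, 106, 100, 106 and 99.8 CPM in the WT embryos. Ndufv2, its iron-sulfur partner, had 4 KO embryos below every WT embryo (log2 fold change -0.09 ± 0.04 (SE), edgeR adjusted p = 0.306). Ndufs1 had 118, 125, 110, 126, 108 and 127 CPM in the KO embryos, against 116, 123, 131, 125, 122 and 116 CPM in the WT embryos. Ndufs1, the largest subunit of the arm, had KO3 and KO5 below every WT embryo and the other KO embryos inside the WT range (log2 fold change -0.04 ± 0.05 (SE), edgeR adjusted p = 0.752).

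Q module core subunits differed by similar or smaller amounts. Ndufs8 had 43.5, 40.7, 44.1, 44.5, 41.6 and 44.5 CPM in the KO embryos, against 43.4, 47.2, 48.8, 47.2, 53.0 and 47.9 CPM in the WT embryos. Ndufs8, which carries iron-sulfur clusters, had every KO embryo below the WT mean and 2 below the lowest WT embryo (log2 fold change -0.15 ± 0.05 (SE), edgeR adjusted p = 0.198). Ndufs7 had 57.2, 59.3, 61.0, 56.1, 64.2 and 57.7 CPM in the KO embryos, against 63.3, 62.0, 61.4, 58.1, 62.2 and 62.3 CPM in the WT embryos. Ndufs7 carries the cluster that hands electrons to ubiquinone, and the groups overlapped (log2 fold change -0.06 ± 0.05 (SE), edgeR adjusted p = 0.539). Ndufs3 had 64.5, 66.7, 66.8, 65.1, 66.1 and 68.0 CPM in the KO embryos, against 70.5, 71.8, 68.3, 67.9, 69.4 and 64.5 CPM in the WT embryos. Ndufs3, a scaffold of the module, had all 6 KO embryos below the WT mean but none below the WT range (log2 fold change -0.05 ± 0.04 (SE), edgeR adjusted p = 0.503). The median log2 fold change over the 7 nuclear core subunits was -0.06.

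Among accessory subunits Ndufa10 had the smallest p. Ndufa10 had 116, 115, 109, 111, 98.8 and 114 CPM in the KO embryos, against 116, 132, 130, 118, 129 and 128 CPM in the WT embryos. Ndufa10, a kinase-like protein of the proximal membrane arm, had 5 KO embryos below every WT embryo, and KO1 was above WT1 (log2 fold change -0.18 ± 0.05 (SE), edgeR adjusted p = 0.17; 95% interval -0.29 to -0.07). DESeq2 gave it an adjusted p of 0.0484, and voom 0.0844. It contains the microRNA gene Mir6900 on its own strand, whose reads cannot be told apart from its own.

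The next accessory subunits on the low side came from several arms of the complex. Ndufb7 had 59.8, 60.2, 52.1, 53.4, 48.1 and 56.8 CPM in the KO embryos, against 66.1, 67.6, 65.1, 56.8, 64.6 and 59.1 CPM in the WT embryos. Ndufb7, an intermembrane-space protein of the distal arm, had every KO embryo below the WT mean (log2 fold change -0.20 ± 0.07 (SE), edgeR adjusted p = 0.189). Ndufs6 had 49.4, 42.9, 46.3, 47.8, 42.7 and 47.7 CPM in the KO embryos, against 54.7, 57.6, 56.3, 45.1, 49.5 and 54.0 CPM in the WT embryos. Ndufs6, a zinc-binding subunit of the N module, likewise had every KO embryo below the WT mean (log2 fold change -0.20 ± 0.07 (SE), edgeR adjusted p = 0.19). Ndufa11 had 37.1, 38.9, 36.6, 43.9, 28.6 and 42.2 CPM in the KO embryos, against 45.0, 41.1, 49.2, 41.8, 44.3 and 42.9 CPM in the WT embryos. Ndufa11, a membrane subunit of the proximal arm, was lowest in KO5 (log2 fold change -0.22 ± 0.09 (SE), edgeR adjusted p = 0.231). Ndufa9 had 81.8, 81.1, 79.7, 82.7, 82.3 and 88.1 CPM in the KO embryos, against 89.3, 91.1, 93.9, 86.2, 89.6 and 83.0 CPM in the WT embryos. Ndufa9, at the junction of the arms, had 5 KO embryos below every WT embryo (log2 fold change -0.11 ± 0.04 (SE), edgeR adjusted p = 0.238). Ndufs6, Ndufa11 and Ndufa9 each overlap another gene on the opposite strand, and the strand setting of the counts is not given in the sources used here. Such overlap is not confined to them: 21 of the 44 members overlap another gene, 6 of them on the same strand.

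Ndufab1 had 67.3, 69.7, 64.3, 73.5, 60.3 and 75.2 CPM in the KO embryos, against 69.3, 75.2, 76.5, 74.1, 73.5 and 73.3 CPM in the WT embryos. Ndufab1, the mitochondrial acyl carrier protein found in both arms, overlapped between the groups, and KO3 and KO5 were its lowest KO embryos (log2 fold change -0.11 ± 0.06 (SE), edgeR adjusted p = 0.329). Ndufs4 had 59.8, 59.0, 65.4, 57.9, 61.4 and 57.5 CPM in the KO embryos, against 58.9, 63.3, 59.6, 58.4, 56.5 and 61.5 CPM in the WT embryos. Ndufs4, whose loss in mice causes a brain disease resembling Leigh syndrome, had nearly equal means of 60.2 ± 2.93 CPM in KO and 59.7 ± 2.40 CPM in WT (SD, n = 6 each), with a 95% interval of the log2 fold change from -0.09 to 0.11 (log2 fold change 0.01 ± 0.05 (SE), edgeR adjusted p = 0.922).

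**Figure D2:**
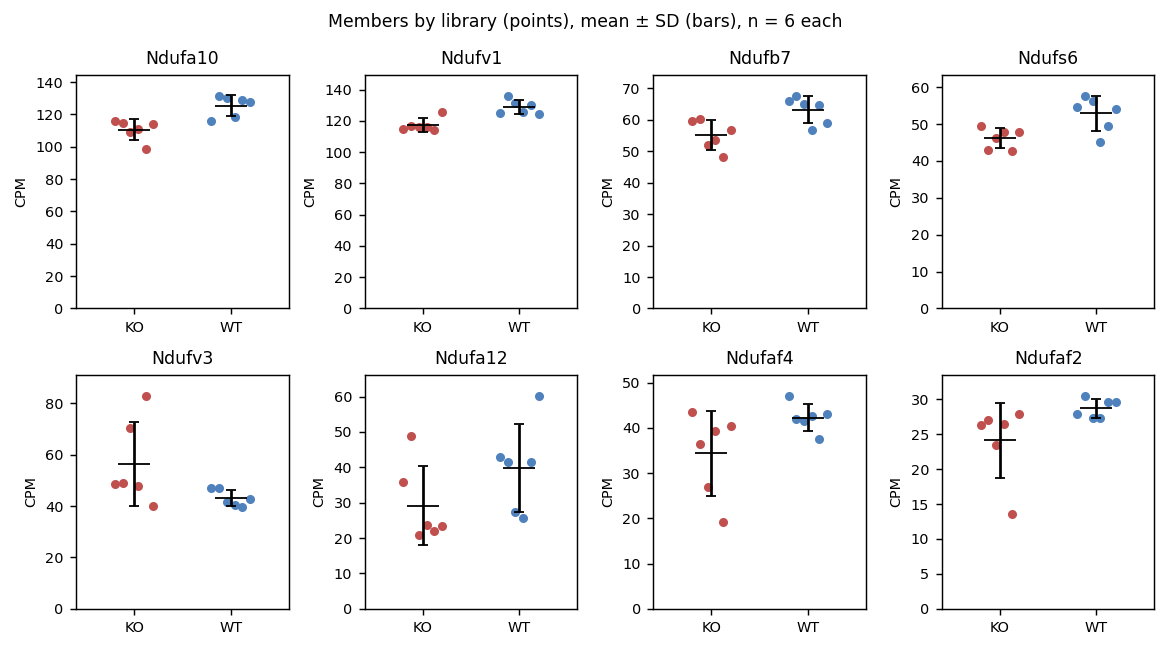
CPM (y axis, from 0) of 8 members in each KO and WT embryo (points) with the mean ± SD (bars, n = 6 each). KO and WT points overlap in every panel, Ndufv3 has 5 KO embryos above all WT embryos, KO3 and KO5 by the most, and Ndufaf4 and Ndufaf2 have a low KO5.

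Ndufv3 was the only member at an unadjusted p of 0.05 or less that was higher in KO. Ndufv3 had 48.6, 48.9, 70.2, 47.8, 82.8 and 39.9 CPM in the KO embryos, against 47.0, 46.9, 41.6, 40.3, 39.7 and 42.7 CPM in the WT embryos. Ndufv3, a small N module subunit, was highest in KO5 and KO3, KO1, KO2 and KO4 also lay above every WT embryo, and KO6 lay inside the WT range (log2 fold change 0.39 ± 0.15 (SE), edgeR adjusted p = 0.223). With KO3 and KO5 set aside, an alternative added after seeing the data, its log2 fold change was 0.11 (edgeR adjusted p = 0.544). Since these were its highest embryos, a smaller difference follows from the choice of embryos. It lies on chromosome 17, 31520115 to 31531326 (GRCm38), 6.99 Mb from Traf7 and 4.36 Mb from 2310061I04Rik. KO3 and KO5 also had the highest hypoxia-list values given above, and the part of these in the Ndufv3 values was not tested.

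Of 6 members on chromosome 17, 3 lie within 15 Mb of Traf7: Ndufv3, Ndufa7 and Ndufb10. Ndufb10 had 54.0, 57.8, 62.9, 58.4, 55.6 and 59.0 CPM in the KO embryos, against 55.6, 63.3, 67.2, 59.9, 57.6 and 59.9 CPM in the WT embryos. Ndufb10, an intermembrane-space subunit of the distal arm, lies 0.194 Mb from Traf7, and its groups overlapped (log2 fold change -0.06 ± 0.06 (SE), edgeR adjusted p = 0.551). Ndufa7 had 67.5, 64.5, 66.0, 69.5, 79.8 and 67.7 CPM in the KO embryos, against 71.2, 69.5, 63.8, 68.8, 63.2 and 73.2 CPM in the WT embryos. Ndufa7, an N module subunit, stood at its highest in KO5, above every WT embryo (log2 fold change 0.02 ± 0.06 (SE), edgeR adjusted p = 0.893).

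Embryo KO5 carried more of the extremes than any other. It was the highest or lowest of the 12 libraries for 25 of 44 members (highest for 7, lowest for 18), and the next was WT2 with 13. The share of all tested genes with KO5 at an extreme was not counted. These counts therefore cannot be read as particular to the members. Ndufb11 had 64.6, 63.6, 67.4, 63.5, 88.1 and 65.3 CPM in the KO embryos, against 71.5, 73.5, 67.8, 64.0, 68.6 and 69.6 CPM in the WT embryos. Ndufb11, an X-linked subunit of the distal arm, was high in KO5 alone (log2 fold change -0.01 ± 0.08 (SE), edgeR adjusted p = 0.971). Ndufa5 had 42.5, 40.8, 36.9, 40.0, 26.1 and 42.1 CPM in the KO embryos, against 44.2, 44.8, 46.1, 38.8, 41.8 and 42.9 CPM in the WT embryos. Ndufa5, a Q module subunit, was lowest in KO5, and KO3 also lay below every WT embryo (log2 fold change -0.18 ± 0.10 (SE), edgeR adjusted p = 0.357). Without KO5 its log2 fold change was -0.09. Ndufa1 had 23.7, 16.9, 23.2, 23.6, 22.9 and 23.4 CPM in the KO embryos, against 24.4, 26.9, 23.6, 21.3, 22.0 and 22.3 CPM in the WT embryos. Ndufa1, an X-linked subunit of the proximal arm, was lowest in KO2 (log2 fold change -0.07 ± 0.09 (SE), edgeR adjusted p = 0.697), and its log2 fold change was -0.0042 without that embryo. For Ndufa5 and Ndufa1 the embryo left out was the lowest, so a smaller difference follows from the choice of embryo. Over the 44 members the median SD on the log2 scale was 0.106 among KO and 0.0901 among WT embryos. Over all genes it was 0.193 among KO and 0.118 among WT embryos. Without KO5 the KO value was 0.0775 over the members and 0.138 over all genes.

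**Figure D3:**
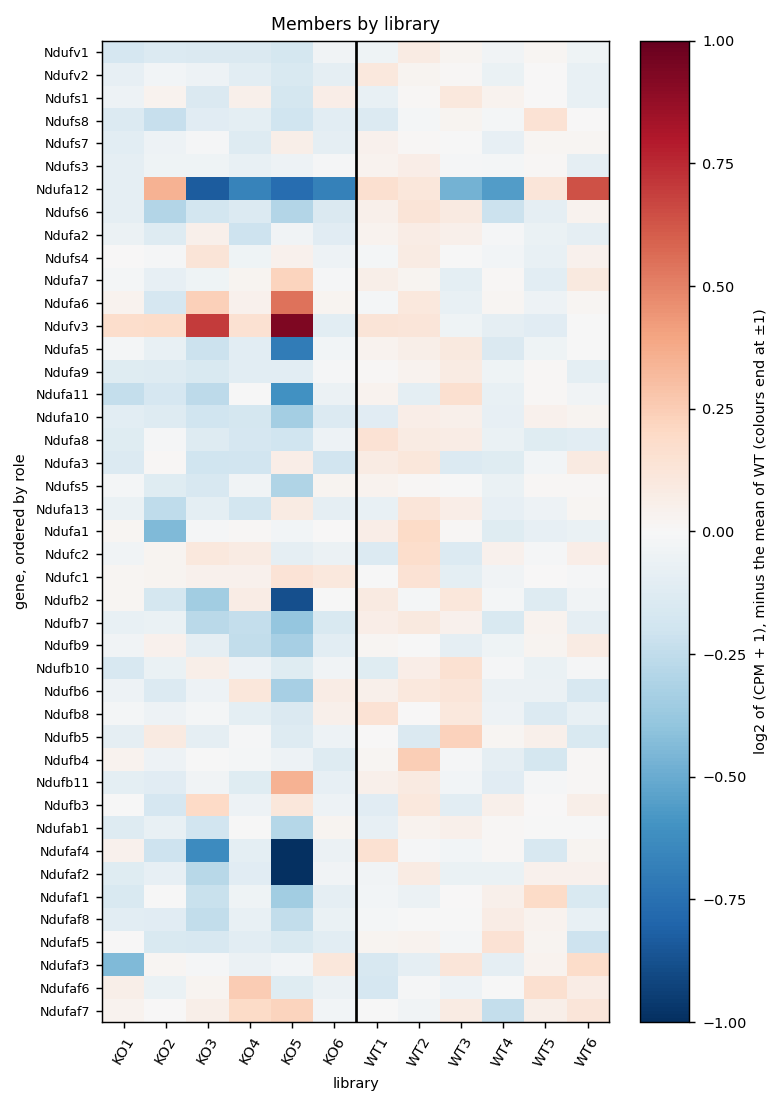
Log2 of CPM + 1 minus its WT mean (colour) for 43 members (rows, by role) in each library (columns, KO left of the line). Colours end at ±1, which Ndufaf4 and Ndufaf2 pass in KO5. KO5 holds the strongest colours in both directions, and Ndufa12 varies in both groups.

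Ndufa12, named after its values were seen, had the largest spread. Ndufa12 had 35.9, 49.0, 21.0, 23.7, 22.1 and 23.5 CPM in the KO embryos, against 43.0, 41.4, 27.3, 25.6, 41.6 and 60.1 CPM in the WT embryos. Ndufa12, an N module subunit added late in assembly, varied 2.35 times among the WT embryos alone, the widest of all members, and the groups overlapped (log2 fold change -0.45 ± 0.25 (SE), edgeR adjusted p = 0.368). Its neighbours varied less: Nr2c1 ran from 20.5 to 28.7 CPM in KO and 21.5 to 23.7 CPM in WT, and Tmcc3 from 8.39 to 11.2 CPM in KO and 8.68 to 11.3 CPM in WT.

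By module, the log2 fold change was below 0 for 6 of 10 N module subunits (median -0.06), 6 of 6 Q module and junction subunits (median -0.08), 7 of 9 proximal arm subunits (median -0.10) and 9 of 10 distal arm subunits (median -0.06). Of the proximal arm subunits not yet described, Ndufa8, an intermembrane-space protein, averaged 55.2 ± 2.71 CPM in KO and 59.9 ± 4.68 CPM in WT (SD, n = 6 each), and Ndufa3, Ndufa13 and Ndufs5 had log2 fold changes of -0.11, -0.10 and -0.10. Ndufc1 (0.06) and Ndufc2 (0.00), small membrane subunits, lay above 0. In the distal arm, Ndufb2 (-0.22), Ndufb9 (-0.13), Ndufb6 (-0.06), Ndufb8 (-0.05), Ndufb5 (-0.05) and Ndufb4 (-0.04) lay below 0 and Ndufb3 lay at 0.01. In the N module Ndufa2 had -0.08, and Ndufa6, a partner of the acyl carrier Ndufab1, had 0.14, with 41.3 ± 7.62 CPM in KO and 37.4 ± 1.73 CPM in WT (SD, n = 6 each). KO5 was its highest embryo at 55.0 CPM. None of these members was called by edgeR, DESeq2 or voom.

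Assembly factors were read beside the subunits. Ndufaf8 had 14.7, 14.6, 13.2, 15.03, 13.2 and 15.1 CPM in the KO embryos, against 15.6, 15.8, 15.8, 16.74, 16.3 and 14.96 CPM in the WT embryos. Ndufaf8, partner of Ndufaf5, had 4 KO embryos below every WT embryo (log2 fold change -0.15 ± 0.07 (SE), edgeR adjusted p = 0.284). Ndufaf4 had 43.6, 36.4, 26.9, 39.4, 19.2 and 40.4 CPM in the KO embryos, against 47.0, 41.9, 41.4, 42.6, 37.6 and 43.0 CPM in the WT embryos. Ndufaf4, which acts with Ndufaf3 on the Q module, was lowest in KO5 and KO3, and KO1 lay above the WT mean (log2 fold change -0.30 ± 0.16 (SE), edgeR adjusted p = 0.333). Ndufaf2 had 26.3, 27.0, 23.5, 26.5, 13.6 and 27.9 CPM in the KO embryos, against 27.9, 30.4, 27.3, 27.3, 29.6 and 29.6 CPM in the WT embryos. Ndufaf2, a relative of Ndufa12 that helps to add the N module, had 5 KO embryos below every WT embryo (log2 fold change -0.25 ± 0.14 (SE), edgeR adjusted p = 0.343). Ndufaf1 had 19.4, 21.6, 18.4, 21.0, 16.8 and 20.3 CPM in the KO embryos, against 21.2, 20.8, 21.7, 22.4, 24.9 and 19.3 CPM in the WT embryos. Ndufaf1, which acts on the membrane arm with Ecsit and Acad9, had every KO embryo below the WT mean (log2 fold change -0.15 ± 0.08 (SE), edgeR adjusted p = 0.337).

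KO3 and KO5 were set aside as an alternative added after seeing the data. The log2 fold change was then -0.08 (edgeR adjusted p = 0.629) for Ndufaf4 and -0.09 (edgeR adjusted p = 0.507) for Ndufaf2. The assembly factor median was then -0.09. KO3 and KO5 had the lowest KO values of both Ndufaf4 and Ndufaf2, so smaller differences for these genes follow from the choice of embryos. Ndufaf5 had 14.0, 12.6, 12.5, 13.0, 12.5 and 13.0 CPM in the KO embryos, against 14.3, 14.4, 13.8, 15.6, 14.3 and 12.03 CPM in the WT embryos. Ndufaf5, which modifies Ndufs7, had every KO embryo below the WT mean (log2 fold change -0.12 ± 0.08 (SE), edgeR adjusted p = 0.423). Ndufaf3 had 9.24, 13.2, 12.8, 12.3, 12.6 and 14.1 CPM in the KO embryos, against 11.5, 12.1, 14.1, 12.1, 13.3 and 14.8 CPM in the WT embryos. Ndufaf3 was lowest in KO1 (log2 fold change -0.07 ± 0.11 (SE), edgeR adjusted p = 0.767), and without that embryo its log2 fold change was 0.0028. Since KO1 was its lowest embryo, the higher value follows from the choice of embryo. Ndufaf6, an early-acting factor, averaged 12.6 ± 1.32 CPM in KO and 12.5 ± 1.05 CPM in WT (SD, n = 6 each), and Ndufaf7, a mitochondrial methyltransferase, averaged 25.3 ± 1.89 CPM in KO and 23.9 ± 2.12 CPM in WT (SD, n = 6 each).

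By library, the median log2 ratio of the 36 subunits to the WT mean ran from -0.13 to -0.05 in KO embryos and from -0.05 to 0.07 in WT embryos, without overlap (highest KO -0.0540, lowest WT -0.0456). The median of the 8 assembly factors ran from -0.20 to -0.05 in KO and from -0.03 to 0.04 in WT embryos. Summed subunit levels were 2132 to 2168 CPM in KO and 2176 to 2348 CPM in WT embryos. Summed assembly factor levels were 127.4 to 169.5 CPM in KO and 169.3 to 174.9 CPM in WT embryos, which overlapped. The gaps in both subunit measures are narrow beside the range within WT. For the assembly factor median the highest KO embryo was at -0.0522, the lowest WT embryo at -0.0251 and the highest WT embryo at 0.0415. No test was made on any of these measures. Other nuclear genes of the chain lay on the same side. Of 40 tested genes of complexes II to V, 37 had a log2 fold change below 0 (median -0.07), against 48.4% of all genes. Their library means were -0.14 to -0.06 in KO and -0.04 to 0.08 in WT. edgeR called 0 of them, against 0.0203% of all genes. At an edgeR unadjusted p of 0.05 or less, 13 were lower, against 7.72% of all genes. In 3, Uqcrc1, Cyc1 and Atp5b, every KO embryo lay below every WT embryo, against 1.74% of all genes. In 0 did every KO embryo lie above, against 1.09%. DESeq2 called 2, Uqcrc1 and Atp5b, against 2.38% of its genes. Among 79 cytosolic ribosomal protein genes, a list added after seeing the data, the median was -0.01.

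**Figure D4:**
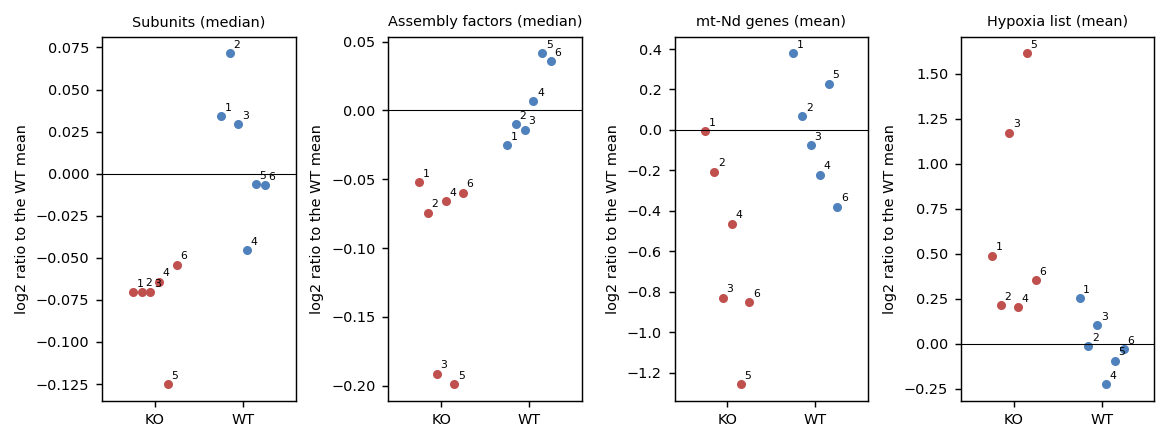
Log2 ratio to the WT mean (y axis) of each library (points, numbered by replicate; KO left, WT right) for the median subunit, the median assembly factor, the mean of mt-Nd genes and the mean of the hypoxia list. KO5 is lowest in the first 3 panels and highest in the last.

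The 7 complex I subunits encoded by mitochondrial DNA all had a log2 fold change below 0, against 48.4% of all genes. Their median was -0.62. mt-Nd4 had 388, 384, 217, 291, 132 and 206 CPM in the KO embryos, against 579, 510, 447, 412, 506 and 350 CPM in the WT embryos. The groups overlapped, with KO5 lowest (log2 fold change -0.79 ± 0.24 (SE), edgeR adjusted p = 0.18). mt-Nd4l had 0.929, 1.001, 0.407, 1.07, 0.634 and 0.496 CPM in the KO embryos, against 3.23, 0.767, 1.29, 2.30, 2.91 and 1.20 CPM in the WT embryos. This low-count gene was the only mt-Nd gene that DESeq2 called, with an adjusted p of 0.0275 (log2 fold change -1.36 ± 0.37 (SE), edgeR adjusted p = 0.169). mt-Nd5 had 699, 632, 362, 472, 262 and 346 CPM in the KO embryos, against 987, 847, 710, 561, 725 and 526 CPM in the WT embryos. KO1 and KO2 lay inside the WT range and the other KO embryos below it (log2 fold change -0.65 ± 0.25 (SE), edgeR adjusted p = 0.222). edgeR called 0 of the 7, against 0.0203% of all genes, and DESeq2 1, against 2.38% of its genes. At an edgeR unadjusted p of 0.05 or less, 4 of the 7 were lower, against 7.72% of all genes. The submitters' paper states that the mitochondrial genes other than mt-Nd6 share a heavy strand promoter. mt-Nd4l also overlaps mt-Nd4, and mt-Nd5 overlaps mt-Nd6, with the strand setting not given. The 7 are therefore not independent of each other. Of 13 tested assembly factors with other names, 7 had a log2 fold change below 0 (median -0.07), against 48.4% of all genes. edgeR called 0 of these 13, against 0.0203% of all genes, and DESeq2 0, against 2.38% of its genes. By edgeR unadjusted p of 0.05 or less, 2 were lower, against 7.72% of all genes, and 0 higher, against 10.1%. In 1 of the 13, Aifm1, every KO embryo lay below every WT embryo, against 1.74% of all genes. Its highest KO embryo had 64.7 CPM and its lowest WT embryo 66.4 CPM. The smallest edgeR p-values were those of Ecsit (-0.23), Aifm1 (-0.22) and Tmem126a (-0.16).

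Per length, the median subunit lay above the median assembly factor in both genotypes. Deposited FPKM (read counts scaled by gene length and library total) had a median of 35.5 in KO and 40.0 in WT over the 36 subunits, and of 8.37 in KO and 9.80 in WT over the 8 assembly factors. Ndufa2, an N module subunit also named after its values were seen, was highest at 89.9 ± 5.20 FPKM in KO and 95.6 ± 4.54 FPKM in WT (SD, n = 6 each). Ndufb2, a distal arm subunit named after its values were seen, was lowest at 0.963 ± 0.252 FPKM in KO and 1.123 ± 0.0816 FPKM in WT. Its counts ran only from 66 to 129 per embryo. Ndufb2 overlaps 3 other genes, 1 of them on its own strand, and their part in its low level was not tested. The deposited length equals the joined exons of a gene in the reference annotation for 40 of 44 members. It is shorter than these for Ndufv1, Ndufs8, Ndufv3 and Ndufa7. For 12 of 44 members the deposited length is over 2 times the principal transcript. With CPM divided by that transcript's length in kilobases, chosen after seeing the data, the median was 60.4 in KO and 62.4 in WT over the subunits, and 12.6 in KO and 12.9 in WT over the assembly factors. Ndufa7 was then highest, at 131 in KO and 129 in WT, and Ndufa2 had 90.8 in KO and 96.2 in WT, so the order of the subunits depends on the length used. Ndufb2 was lowest with either length.

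**Figure D5:**
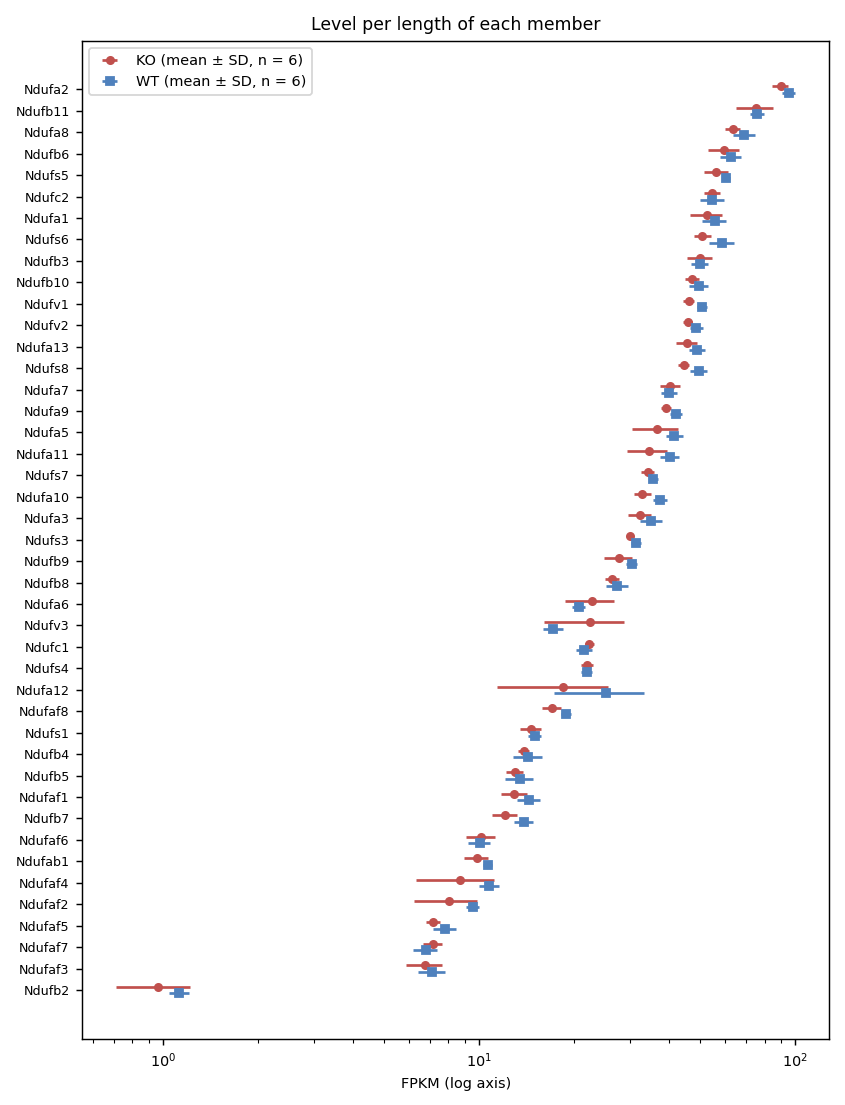
Deposited FPKM (x axis, log scale) of 43 members (y axis), mean ± SD over 6 KO embryos (circles) and 6 WT embryos (squares). Ndufa2 is highest at 89.9 in KO and Ndufb2 lowest at 0.963, and KO and WT lie close together.

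Promoter windows of 300 bases (250 before to 50 after the start, RefSeq, GRCm38.p6) matched 39 members, and 5 had no entry. They were searched on both strands for GCGCATGCG (most of the NRF1 palindrome), CCGGAAG (an ETS core), AAGATGGCG (a YY1 match) and GGGCGG (a GC box). GCGCATGCG was in 4 members, against 1.75% of all promoters, CCGGAAG in 6, against 8.86%, AAGATGGCG in 6, against 1.40%, and GGGCGG in 21, against 35.7%. NRF1, ETS-family GABP and YY1 are known regulators of nuclear respiratory genes. A match is only a description of the letters. Below are matches from members with values given above, 5′ to 3′ on the gene's strand, with the match in capitals.
Ndufaf4 (chr4:24897960-24897988, plus strand): ccagatgtctGCGCATGCGcctgtgcgga
Ndufa11 (chr17:56717692-56717720, plus strand): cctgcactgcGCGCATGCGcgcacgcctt
Ndufb7 (chr8:83566727-83566755, plus strand): gcctagatgacCCGGAAGacactgaaggg
Ndufs8 (chr19:3912742-3912770, minus strand): ttaggctccgcCTTCCGGttgaaccgcat
Ndufa9 (chr6:126849097-126849125, minus strand): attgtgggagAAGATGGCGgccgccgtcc
Ndufs6 (chr13:73328433-73328461, minus strand): agggtcaccggcAAGATGGCGgcggtgct
The capitals in Ndufaf4 and Ndufa11 are the NRF1 letters, those in Ndufb7 and Ndufs8 the ETS core (read on the opposite strand in Ndufs8), and those in Ndufa9 and Ndufs6 the YY1 letters, which fall after the start in both genes.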

How the data were processed

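Bulk RNA sequencing covered 6 KO and 6 WT embryos. A service company made the libraries and ran its pipeline on GRCm38, the build in the submitters' processing notes; which aligner, counter or strand setting was used is not given in the sources used here. The deposited counts are raw reads per gene. The deposited FPKM divide counts by gene length and library total. The deposited signal columns hold group means of normalised counts by the authors, and the deposited log2 fold changes and p-values are the authors' own comparison; none of these was used. Other deposited columns give gene names and coordinates.

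Counts were tested by quasi-likelihood in edgeR 4.0.16 under R 4.3.3 (F test, robust, TMM, filterByExpr, group as the only term), Benjamini-Hochberg over 14804 genes, two-sided, called at 0.05. CPM used TMM-scaled totals. Log2 ratios by library used CPM + 1. The floor of 3 counts was 0.136 to 0.18 CPM and covers counting error only. DESeq2 1.42.0, limma 3.58.1 and other scalings, filters and left-out libraries were alternatives. The edgeR step was tested on simulated data with 200 changed genes. Same-group libraries differed by more than sampling noise (lowest chi-square per gene 4.61).

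Named members were core subunits, Ndufs4, Ndufab1, the 6 other subunits and 4 assembly factors with the smallest p, any called or non-overlapping member, those within 15 Mb of Traf7 and those with an embryo standing apart. Other members are given by group mean, log2 fold change or counts. Ndufa12, Ndufb2 and Ndufa2 were described further after their values were seen. Members and lists were chosen with earlier results of these data known. 1 core subunit is not reported singly here and is left out of the figures, but is part of the counts and medians.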

Additional observations from a re-analysis of the deposited data

Results flagged for a closer look

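Within 1 genotype, 10 times an embryo stood apart from the other 5 in the level of a member described singly, by a gap past Dixon's 95% limit for 6 samples. With 86 groups examined, about 1 in 20 would hold such an embryo by chance if the groups were independent. They share the same embryos, so they are not independent, and the rate over all genes was not counted. KO5 accounted for 4 of the 10 cases. Ndufv1 had 126 CPM in KO6, and the remaining KO embryos ranged between 114 and 117 CPM. Ndufa9 had 88.1 CPM in KO6, and the remaining KO embryos ranged between 79.7 and 82.7 CPM. Ndufb11 had 88.1 CPM in KO5, and the remaining KO embryos ranged between 63.5 and 67.4 CPM. Ndufa7 had 79.8 CPM in KO5, and the remaining KO embryos ranged between 64.5 and 69.5 CPM. Ndufs7 had 58.1 CPM in WT4, and the remaining WT embryos ranged between 61.4 and 63.3 CPM. Ndufa5 had 26.1 CPM in KO5, and the remaining KO embryos ranged between 36.9 and 42.5 CPM. Ndufaf2 had 13.6 CPM in KO5, and the remaining KO embryos ranged between 23.5 and 27.9 CPM. Ndufa1 had 16.9 CPM in KO2, and the remaining KO embryos ranged between 22.9 and 23.7 CPM. Ndufaf5 had 14.0 CPM in KO1, and the remaining KO embryos ranged between 12.5 and 13.0 CPM. Ndufaf3 had 9.24 CPM in KO1, and the remaining KO embryos ranged between 12.3 and 14.1 CPM.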

How the results depend on the processing

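The edgeR test called 3 genes and 0 complex I members. DESeq2 called 328 genes and 1 member (Ndufa10), and with its filtering tuned at 0.1, an alternative added after seeing the data, 316 genes and 1 member. limma voom called 53 genes, a filter of at least 10 counts in every library left 1, and leaving out each embryo in turn gave 2 to 5 (5 without KO5). With KO2, KO3 and KO5 set aside edgeR called 36 genes and with KO3 and KO5 set aside 41, both added after seeing the data. No setting other than DESeq2 called a member. The subunit median stayed below 0 in every setting run, between -0.09 and -0.06. The assembly factor median also stayed below 0: -0.11 by voom, -0.0805 without KO2, KO3 and KO5, -0.0856 without KO3 and KO5, and -0.17 to -0.11 when each embryo was left out. Subunit FPKM in KO had a median of 60.4 with the principal transcript's length.

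Members near 0 changed sign. Ndufa7 was -0.0048 by voom, -0.00095 without KO2, KO3 and KO5, -0.021 without KO3 and KO5, and -0.027 to 0.038 leaving out each embryo. Ndufs4 was -0.015 by voom, -0.032 and -0.028 with those embryos set aside, and -0.014 to 0.028 leaving out each. Ndufb11 was 0.0023 with upper quartile factors, 0.013 with library totals alone, and -0.091 to 0.014 leaving out each. Ndufaf3 was -0.11 to 0.0028 leaving out each. Ndufs1 was 0.022 without KO2, KO3 and KO5 and 0.024 without KO3 and KO5, and Ndufa1 was 0.0091 without KO2, KO3 and KO5. The causes were not tested.

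Embryos share only a replicate number: deviations of same-numbered KO and WT embryos correlated between -0.328 and 0.303. With the number as a replicate block, edgeR called 2 genes and 0 members, with medians of -0.08 for subunits and -0.14 for assembly factors.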
